A study of Mus musculus with 4 samples.

Results

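The 42 genes described here are nuclear receptors other than the PPAR, RXR, LXR and REV-ERB receptors, together with 6 coregulators that receptors recruit to chromatin. They were chosen by name, as receptors or coregulators, under a rule that uses no measured value, although earlier results of these data were known. All 42 were found among the 22463 gene symbols of the RNA-Seq files, and 36 of them encode receptors. A gene was taken as expressed when its level passed 1 RPKM in either Ad-GFP library, as 21 of the 42 did. RPKM is the number of reads per kilobase of exon, scaled to the mapped reads of the library.

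RNA-Seq was carried out in brown preadipocytes isolated from E18.5 C57BL/6J mouse embryos and immortalized with SV40T. All cells carried *Mll3*-/- and *Mll4* f/f alleles and were infected with an adenovirus expressing GFP (Ad-GFP) or the Cre recombinase (Ad-Cre), which removes the floxed part of *Mll4*. RNA was taken at day 0 and after 2 days of adipogenic induction (day 2), which gave 4 libraries with 1 library per condition. The comparisons ask how the genes moved over 2 days of induction and how their levels differed after *Mll4* deletion.

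The Ad-GFP cells are named WT in the labels, but their genotype is *Mll3*-/-, so the control cells also lacked MLL3. The Ad-Cre cells were *Mll3*-/-;*Mll4*-/-. Day 0 was 2 days after confluence, and the day 2 cells had received 0.02 mM insulin, 1 nM T3, 0.125 mM indomethacin, 0.5 mM IBMX and dexamethasone. The number of embryos or clones behind the cell line was not stated, and the cultures were not replicated. With no replicate, no test between conditions was possible and no p-value is given. Each log2 ratio carries the exact binomial 95% confidence interval of its reads, which covers counting error only and compares the libraries, not the conditions. A gene was called higher or lower when it was expressed and its RPKM ratio passed 2.5-fold.

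Nuclear receptors are transcription factors that bind hormones or other small lipophilic ligands and regulate genes through hormone response elements, and some of them have no known ligand. Bound receptors exchange corepressors such as NCoR1 for coactivators such as the p160 proteins and the Mediator subunit MED1. In brown preadipocytes, dexamethasone is a ligand of the glucocorticoid receptor, T3 of the thyroid hormone receptors, and IBMX raises cAMP, a signal known to induce the NR4A receptors.

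Mapped reads ran from 17198448 to 22986362 per library, and 3 reads on a transcript of 1 kb corresponded to between 0.131 and 0.174 RPKM. The Ad-Cre day 2 library stood apart. Its deposited counts summed to 87.8% of its mapped reads, against 96.1 to 99.4% in the other 3 libraries. A read on bases that several transcripts have in common can enter such a sum more than once. These percentages therefore do not tell how many reads were exonic. The ratio of this library to Ad-GFP day 2 fell with transcript length. The median log2 ratio there was 0.30 for transcripts up to 2 kb and −0.84 for those over 8 kb, whereas the 5 length classes lay between −0.10 and 0.02 for the same ratio at day 0. The members' log2 ratios that use this library are therefore also given after division by their trend over transcript length and GC content ("after division"). Part of the division comes from GC content. At 59.8, 61.8 and 67.3% GC, *Thra*, *Esrra* and *Nr2f6* had trends of 0.58, 0.64 and 0.84 in the day 2 ratio. Their transcripts have 2246, 2242 and 2218 bases. Expressed genes in the length bin with a median length of 2211.5 bases had a median log2 ratio of −0.04. Neither comparison that uses the Ad-Cre day 2 library can be made without it. With 1 library per condition, a trend of the library cannot be told apart from differences between the cells that follow length or GC content. The division can remove either. Lists of 4 values below are in the order Ad-GFP day 0, Ad-GFP day 2, Ad-Cre day 0 and Ad-Cre day 2. *Kmt2d*, the gene of MLL4, had between 15.7 and 18.7 RPKM. Its count covers the whole transcript and does not check the deletion.

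The labelled cell type was checked against markers. The summed level of 6 preadipocyte markers was 335, 121, 148 and 81.0 RPKM, and at day 0, 4 of the 6 were called lower after *Mll4* deletion, among them *Pdgfra* with 73.6, 7.63, 9.72 and 6.25 RPKM. *Pdgfrb* went the other way at day 0, with 89.9, 39.3, 123 and 41.9 RPKM, and made up most of the Ad-Cre day 0 sum. *Cd34*, called lower at day 0, was higher with Ad-Cre at day 2, with 11.1, 1.46, 0.35 and 2.98 RPKM. The summed level of 7 brown adipocyte markers was 8.74, 1015, 6.73 and 253 RPKM, but at day 2 *Fabp4*, a gene of fat cells in general, made up most of it, with 893 RPKM in Ad-GFP and 223 RPKM in Ad-Cre cells. *Prdm16*, a regulator of brown fat identity, had 2.14 and 0.68 RPKM in these 2 libraries. The defining brown fat genes *Ucp1* and *Cidea* had 3 and 0 reads over the 4 libraries, so they were absent or nearly so also at day 2. None of the leukocyte, endothelial, skeletal muscle or epithelial markers found among the gene symbols passed 1 RPKM in any library. Of 5 leukocyte markers 4 were found, and *Cd68* was not. In bulk libraries, fewer cells of a type and less RNA per cell cannot be told apart, and the part of these marker differences in the results below was not tested.

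Over the 2 days of induction in Ad-GFP cells, 4 of the 21 expressed members were called higher (*Thra*, *Esrra*, *Ncoa1* and *Nrip1*) and 1 was called lower (*Rarg*). Of all 11541 expressed genes, 8.38% were called higher and 12.7% lower. In Ad-Cre cells, 3 members were called higher (*Thra*, *Vdr* and *Nr2f1*) and 0 lower, against 8.66% and 10.0% of expressed genes. The median log2 ratio of all expressed genes was 0.15 with Ad-GFP and −0.01 with Ad-Cre, and that of the members was 0.25 and 0.10. With TMM factors, an alternative scaling of the libraries, the medians of all genes were 0.05 and 0.03 and those of the members 0.15 and 0.14. In Ad-Cre cells the sum of the deposited counts as the denominator gave 11.4% of expressed genes called higher and 7.95% lower, with the same 3 members. These counts are small, and the members' shares are given as a description beside those of all genes.

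Between Ad-Cre and Ad-GFP cells at day 0, 0 of the 21 expressed members passed 2.5-fold in either direction, while 1.27% of expressed genes were called higher and 4.12% lower. At day 2, 3 members were called higher in Ad-Cre cells (*Vdr*, *Nr4a1* and *Nr2f1*) and 3 lower (*Rora*, *Nr2c2* and *Nrip1*), against 8.14% and 10.1% of expressed genes. Expression was set in Ad-GFP libraries alone, which leaves out genes that pass 1 RPKM only in Ad-Cre cells. With expression over 1 RPKM in any of the 4 libraries, 2.08% were called higher and 4.17% lower at day 0. At day 2 these shares were 9.59% and 9.87%. *Nr4a3* was then called higher on both days. The median log2 ratio at day 2 was −0.42 for the members and −0.16 for all expressed genes. With TMM factors these were −0.23 and 0.02, 10.5% of expressed genes were called higher and 7.07% lower, and the members called were *Rarg* in addition to the 3 higher ones and, of the 3 lower ones, *Nrip1* alone. After division the members' median was −0.05. The induction in Ad-GFP cells and the day 2 comparison share the Ad-GFP day 2 library, and the induction in Ad-Cre cells shares the Ad-Cre day 2 library with it.

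**Figure D1:**
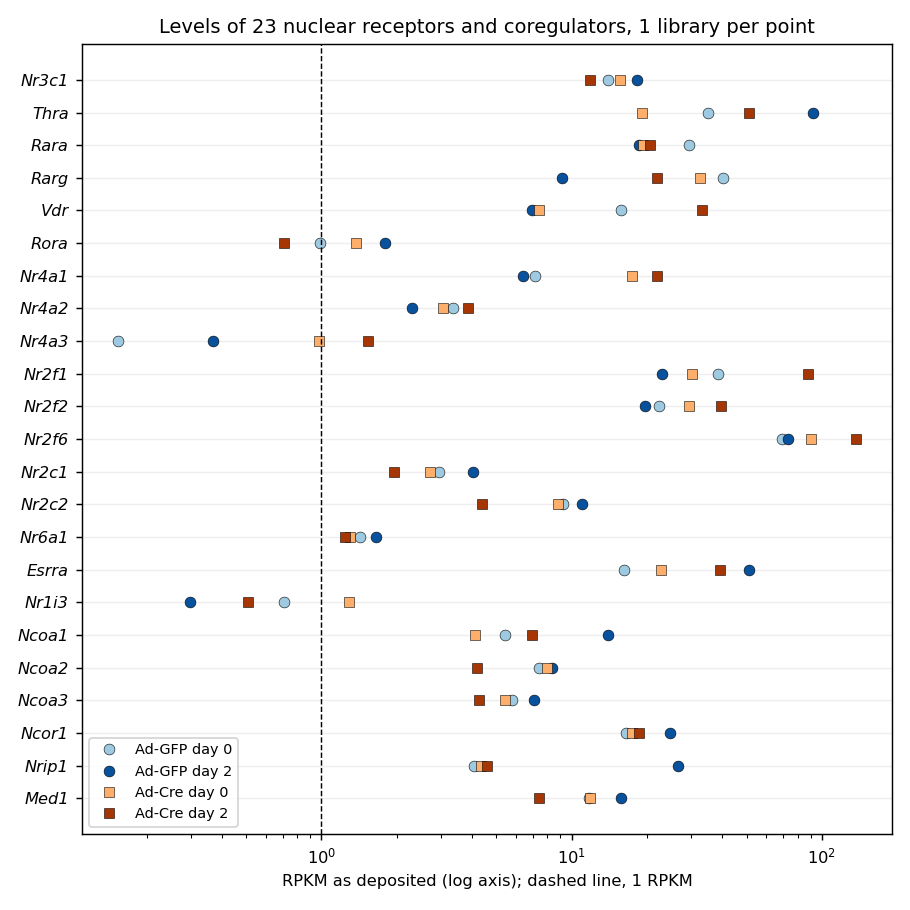
RPKM as deposited (log axis) of the 23 members over 1 RPKM in at least 1 of the 4 libraries, with 1 point per library (circles, Ad-GFP; squares, Ad-Cre; pale, day 0; dark, day 2) and a dashed line at 1 RPKM. *Nr2f6* has the highest point, at 136 RPKM in Ad-Cre cells at day 2, and the Ad-GFP day 2 point of *Nrip1*, at 26.6 RPKM, lies far from its other 3.

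Among the steroid receptors, which bind adrenal and gonadal hormones, the glucocorticoid receptor gene *Nr3c1* was the one expressed member. It had 1524, 2653, 1923 and 1353 reads, or 14.0, 18.2, 15.6 and 11.9 RPKM. It passed 2.5-fold in no comparison. Its log2 ratio of day 2 to day 0 was 0.38 (0.29 to 0.47) in Ad-GFP and −0.39 (−0.49 to −0.29) in Ad-Cre cells, where division turned the sign, to 0.30. At day 2 the Ad-Cre to Ad-GFP log2 ratio was −0.62 (−0.72 to −0.53), and after division the sign turned, to 0.31. The transcript is 6329 bases long, in the range where the Ad-Cre day 2 library read low.

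The mineralocorticoid receptor gene *Nr3c2*, the progesterone receptor gene *Pgr* and the estrogen receptor genes *Esr1* and *Esr2* stayed under 1 RPKM in every library. *Esr2* had 11, 0, 12 and 0 reads. The upper bound of the exact interval of its day 2 to day 0 log2 ratio was −1.75 with Ad-GFP and −1.36 with Ad-Cre, from very few reads in both. *Esr1* had 4, 7, 5 and 1 reads, *Nr3c2* 4, 2, 2 and 0, and *Pgr* 0, 0, 1 and 0.

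The genes that the ligand-bound glucocorticoid receptor is known to act on, and the chaperones that hold steroid receptors ready for ligand, were described from lists of their own. All 12 glucocorticoid-responsive genes were expressed. Over the 2 days, 9 were called higher and 1 lower in Ad-GFP cells, and 9 higher and 0 lower in Ad-Cre cells, with median log2 ratios of 1.48 and 2.52, the latter 2.28 after division. *Fkbp5*, a co-chaperone that dampens the receptor, had 24.0, 242, 19.7 and 134 RPKM, and *Tsc22d3*, the glucocorticoid-induced leucine zipper, had 7.82, 107, 8.38 and 40.7 RPKM. Both rose past 2.5-fold in both kinds of cells. Between Ad-Cre and Ad-GFP cells at day 2 the list was split, with 4 genes called higher and 4 lower, against 8.14% and 10.1% of expressed genes. These calls are by RPKM, and *Tsc22d3*, among the lower ones at −1.40, was at −1.11 after division, short of 2.5-fold. The 8 chaperones, HSP90 and its partners, passed 2.5-fold in none of the 4 comparisons (0 of 8 in each). Over all expressed genes, between 1.27% and 12.7% were called in each direction.

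The thyroid hormone receptor gene *Thra* had 1348, 4764, 836 and 2079 reads, or 34.9, 92.3, 19.1 and 51.3 RPKM. It rose with induction in both kinds of cells, and at each day its RPKM was lower in the Ad-Cre library. The log2 ratio of day 2 to day 0 was 1.40 (1.32 to 1.49) with Ad-GFP and 1.43 (1.31 to 1.55) with Ad-Cre. The first was no longer past 2.5-fold with TMM factors (1.30), and the second was no longer past it after division (0.90). The Ad-Cre to Ad-GFP log2 ratio was −0.87 (−0.998 to −0.746) at day 0, with −0.85 (−0.92 to −0.77) for day 2, both short of 2.5-fold, and after division the day 2 ratio was −1.42 and passed it. The other thyroid hormone receptor gene, *Thrb*, had 0 reads in all 4 libraries, which allows at most 3 reads in each.

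Of 10 genes that handle or respond to thyroid hormone, 5 were expressed. In Ad-GFP cells 4 of them were called higher and 1 lower at day 2, against 8.38% and 12.7% of expressed genes. In Ad-Cre cells 4 were called higher and 0 lower, against 8.66% and 10.0%. *Klf9*, a Kruppel-like factor that both thyroid hormone and glucocorticoids are known to induce, had 6.42, 86.2, 12.7 and 197 RPKM. *Slc16a10*, an amino acid carrier that also moves thyroid hormone, had 1.21, 20.8, 1.06 and 3.29 RPKM. *Dio2*, the deiodinase that makes T3 from T4 in brown fat, had 5 reads over the 4 libraries and was not expressed.

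Among the retinoic acid receptor genes, *Rarg* was the one that passed 2.5-fold, over induction in Ad-GFP cells. It had 2014, 615, 1848 and 1153 reads, or 40.1, 9.17, 32.5 and 21.9 RPKM, and was the lowest in Ad-GFP cells at day 2. Its log2 ratio of day 2 to day 0 was −2.13 (−2.262 to −1.999) in Ad-GFP cells, 4.38-fold lower at day 2, and −0.57 (−0.67 to −0.46) in Ad-Cre cells, or −0.79 after division. At day 2 the Ad-Cre to Ad-GFP log2 ratio was 1.26 (1.11 to 1.40), just short of 2.5-fold. With TMM factors it passed (1.44), and after division it was 0.91.

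*Rara*, the widely expressed retinoic acid receptor, had 1643, 1388, 1220 and 1209 reads, or 29.4, 18.6, 19.2 and 20.6 RPKM. The Ad-GFP day 0 library was the highest and the other 3 lay close together. No ratio of *Rara* passed 2.5-fold, and the day 2 Ad-Cre to Ad-GFP ratio was 0.15 (0.04 to 0.26) and −0.27 after division. *Rarb*, which retinoic acid is known to induce, had 13, 11, 7 and 6 reads and at most 0.273 RPKM, the highest level among the members that were under 1 RPKM everywhere. Of 6 expressed retinoid-responsive genes, 1 was called higher and 2 lower in Ad-GFP cells at day 2, against 8.38% and 12.7% of expressed genes. In Ad-Cre cells 2 were called higher and 1 lower, against 8.66% and 10.0%.

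The vitamin D receptor gene *Vdr* moved in opposite directions in the 2 kinds of cells. It had 1183, 693, 630 and 2602 reads, or 15.8, 6.92, 7.42 and 33.1 RPKM, and the Ad-Cre day 2 library was the highest. Its log2 ratio of day 2 to day 0 was −1.19 (−1.33 to −1.05) in Ad-GFP cells, short of 2.5-fold, and 2.16 (2.03 to 2.29) in Ad-Cre cells. After division both inductions passed 2.5-fold, at −1.33 and 2.28. Between the day 0 libraries, *Vdr* was lower with Ad-Cre, by a log2 ratio of −1.09 (−1.23 to −0.95). At day 2 it was 4.79-fold higher, at a log2 ratio of 2.26 (2.14 to 2.38) and of 2.56 after division. Its transcript is 4354 bases long, and transcripts of 4 to 6 kb had a median log2 ratio of −0.55 in this comparison.

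**Figure D2:**
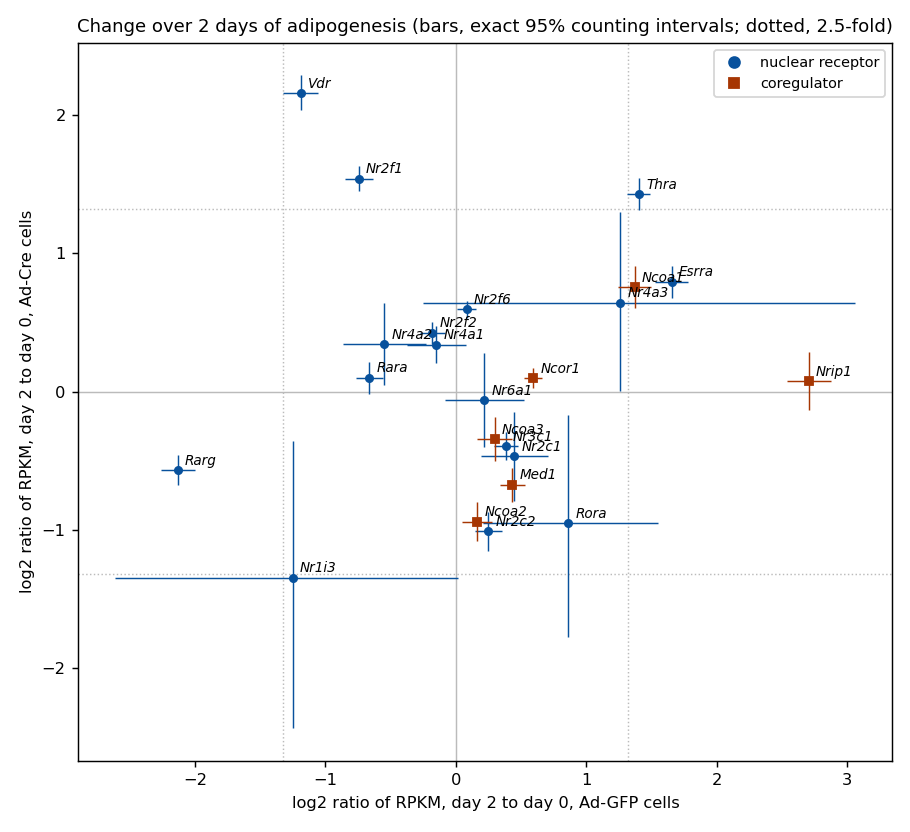
Log2 ratio of RPKM at day 2 to day 0 in Ad-GFP cells (x axis) against Ad-Cre cells (y axis) for the 23 members over 1 RPKM in any library, with exact 95% counting intervals as bars and 2.5-fold as dotted lines. *Vdr* (−1.19 and 2.16) and *Nr2f1* (−0.74 and 1.54) lie at the upper left, *Nrip1* (2.71 and 0.08) at the far right, and *Thra* near equal values on both axes.

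The orphan receptors of the NR4A family, immediate-early genes with no known natural ligand, were next described, with the promoters of all 3. The 250 bases before the start of each gene were taken from RefSeq on GRCm38.p6 and are shown because cAMP, which IBMX raises, is a known inducer of the family. Capitals mark each TGACG and its reverse complement CGTCA, the half-site of the cAMP response element. Each is written in the direction of transcription.
Nr4a1 promoter: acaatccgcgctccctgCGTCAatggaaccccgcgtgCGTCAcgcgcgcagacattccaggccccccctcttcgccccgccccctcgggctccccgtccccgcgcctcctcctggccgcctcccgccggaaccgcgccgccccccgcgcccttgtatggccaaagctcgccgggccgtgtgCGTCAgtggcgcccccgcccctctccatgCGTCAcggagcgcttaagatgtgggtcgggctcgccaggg
Nr4a2 promoter: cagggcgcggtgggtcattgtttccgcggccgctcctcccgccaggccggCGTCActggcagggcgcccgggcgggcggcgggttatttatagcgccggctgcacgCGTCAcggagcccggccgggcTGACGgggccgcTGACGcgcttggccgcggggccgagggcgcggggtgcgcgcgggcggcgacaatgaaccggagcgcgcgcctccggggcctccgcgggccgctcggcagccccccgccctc
Nr4a3 promoter: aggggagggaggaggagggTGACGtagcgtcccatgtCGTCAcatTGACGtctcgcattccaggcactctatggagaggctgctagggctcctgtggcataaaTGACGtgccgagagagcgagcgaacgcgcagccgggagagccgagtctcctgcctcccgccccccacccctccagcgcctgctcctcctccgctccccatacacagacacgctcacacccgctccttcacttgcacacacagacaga

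The *Nr4a1* window is chr15:101266596-101266845 on the plus strand, that of *Nr4a2* is chr2:57124004-57124253 on the minus strand, and that of *Nr4a3* is chr4:48045055-48045304 on the plus strand. Each holds 4 of the half-sites, counted on either strand. At least 1 half-site is held by 17.8% of 32851 mouse promoters of the same length, and 4 or more by 45 of them (0.137%), a count chosen after the 3 promoters were seen. The full palindrome TGACGTCA is in none of the 3 and in 1.55% of all promoters. A match describes letters and not a bound site.

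*Nr4a1* had 303, 365, 839 and 982 reads, or 7.12, 6.41, 17.4 and 22.0 RPKM, and both Ad-Cre libraries lay above both Ad-GFP libraries. The Ad-Cre to Ad-GFP log2 ratio was 1.29 (1.10 to 1.48) at day 0, 2.44-fold and just short of 2.5-fold. With TMM factors it was 1.33, just past it. At day 2 it was 1.78 (1.60 to 1.96), 3.43-fold higher, and 1.53 after division. Induction moved it little, with log2 ratios of −0.15 (−0.37 to 0.07) in Ad-GFP and 0.34 (0.21 to 0.48) in Ad-Cre cells, the latter 0.08 after division.

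*Nr4a3* had 5, 16, 36 and 52 reads, or 0.15, 0.37, 0.98 and 1.53 RPKM, so it passed 1 RPKM in the Ad-Cre day 2 library only and was not counted as expressed. The Ad-Cre to Ad-GFP log2 ratio was 2.67 (1.31 to 4.37) for day 0, with 2.05 (1.22 to 2.96) for day 2, or 2.20 after division. The day 0 ratio rests on 5 reads in Ad-GFP cells. *Nr4a2* had 175, 160, 180 and 211 reads, or 3.36, 2.30, 3.05 and 3.87 RPKM. Unlike the other 2, its day 0 ratio had an interval that held 0, at −0.14 (−0.45 to 0.17), and its day 2 ratio was 0.75 (0.45 to 1.06), or 1.27 after division.

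Other genes known to respond to cAMP were set beside the family, and 9 of 10 were expressed. Between Ad-Cre and Ad-GFP cells, 0 were called higher and 1 lower at day 0, against 1.27% and 4.12% of expressed genes. At day 2, 1 was called higher and 0 lower, against 8.14% and 10.1%. The gene called higher at day 2 was *Dusp1*, a phosphatase of MAP kinases that glucocorticoids also induce, with 11.5, 5.38, 16.7 and 26.1 RPKM. *Fos*, an AP-1 subunit, had 1.06, 0.73, 2.40 and 1.56 RPKM, and its log2 ratios of 1.18 at day 0 and 1.10 at day 2 were short of 2.5-fold. The gene called lower at day 0 was *Sik1*, a kinase that dampens cAMP signalling, with 6.94, 11.7, 2.55 and 12.9 RPKM. *Pde4b* and *Crem*, named after their values were seen, had log2 ratios of Ad-Cre over Ad-GFP below 0 on both days, at −0.42 and −0.45 for *Pde4b* and −0.28 and −0.36 for *Crem*, and the day 2 values turned to 0.26 and 0.15 after division. These 2 genes do not stand for the list. The median log2 ratio of its 9 expressed genes was above 0, at 0.32 for day 0 and 0.13 for day 2, or 0.79 after division.

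The COUP-TF genes encode orphan receptors that mostly repress transcription. *Nr2f1* (COUP-TFI) had 1611, 1285, 1437 and 3864 reads, or 38.5, 23.0, 30.3 and 88.2 RPKM. The Ad-Cre day 2 library was far above the other 3. The log2 ratio of day 2 to day 0 was −0.74 (−0.85 to −0.64) with Ad-GFP and 1.54 (1.45 to 1.63) with Ad-Cre, and the latter was 1.15 after division, short of 2.5-fold. At day 2 *Nr2f1* was 3.83-fold higher in the Ad-Cre library, at a log2 ratio of 1.94 (1.85 to 2.03), and stayed past 2.5-fold after division at 1.47.

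*Nr2f2* (COUP-TFII) had 1615, 1906, 2415 and 2997 reads, or 22.3, 19.7, 29.4 and 39.4 RPKM. Both Ad-Cre libraries lay above both Ad-GFP libraries, with log2 ratios of 0.40 (0.31 to 0.49) for day 0 and 1.00 (0.92 to 1.09) at day 2. Its transcript of 4216 bases is longer than that of *Nr2f1*, and its GC content is lower, at 45.3% against 60.2%. After division, which takes both into account, the day 2 ratio was 1.70 and passed 2.5-fold. *Nr2f6* (EAR2) had the highest levels of all members in 3 of the 4 libraries, at 69.3, 73.4, 90.3 and 136 RPKM. *Thra*, at 92.3 RPKM, was above it in Ad-GFP cells at day 2. The log2 ratio of *Nr2f6* at day 2 was 0.89 (0.83 to 0.95) and 0.05 after division. In addition, 41.2% of its annotated transcript lies in exons of *Ocel1* on the opposite strand. The strand of counting was not stated, so reads of the 2 genes cannot be told apart.

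The testicular receptors TR2 (*Nr2c1*) and TR4 (*Nr2c2*) bind direct repeats, and GCNF (*Nr6a1*) is a repressor known from germ cells. *Nr2c2* had 1211, 1923, 1306 and 600 reads, or 9.24, 11.0, 8.78 and 4.37 RPKM, and was lowest in the Ad-Cre day 2 library. At day 2 the Ad-Cre to Ad-GFP log2 ratio was −1.33 (−1.46 to −1.20), 2.51-fold lower. This call was lost with TMM factors (−1.15) and after division (−0.40). The count is uncertain also because 46.2% of the annotated transcript lies in exons of *Mrps25* on the opposite strand, and 22.5% of its 50-base windows matched elsewhere in the genome with at most 2 mismatches. *Nr2c1* had 2.95, 4.02, 2.71 and 1.96 RPKM, with a day 2 log2 ratio of −1.04 (−1.34 to −0.75) and −0.25 after division. *Nr6a1* ran from 1.25 to 1.65 RPKM, and none of its 4 ratios passed 2.5-fold.

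*Rora*, an orphan receptor of the circadian clock and of lipid metabolism, was near the threshold of expression with 28, 68, 44 and 21 reads, or 0.99, 1.80, 1.37 and 0.71 RPKM. It counted as expressed only through the Ad-GFP day 2 library, which is the denominator of its day 2 ratio. In Ad-Cre against Ad-GFP cells at day 2 the log2 ratio was −1.34 (−2.13 to −0.62), 2.54-fold lower. With so few reads the interval reaches well short of 2.5-fold, and the call was lost with TMM factors (−1.16) and after division (−1.08). *Rorb* had 0, 2, 1 and 0 reads.

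**Figure D3:**
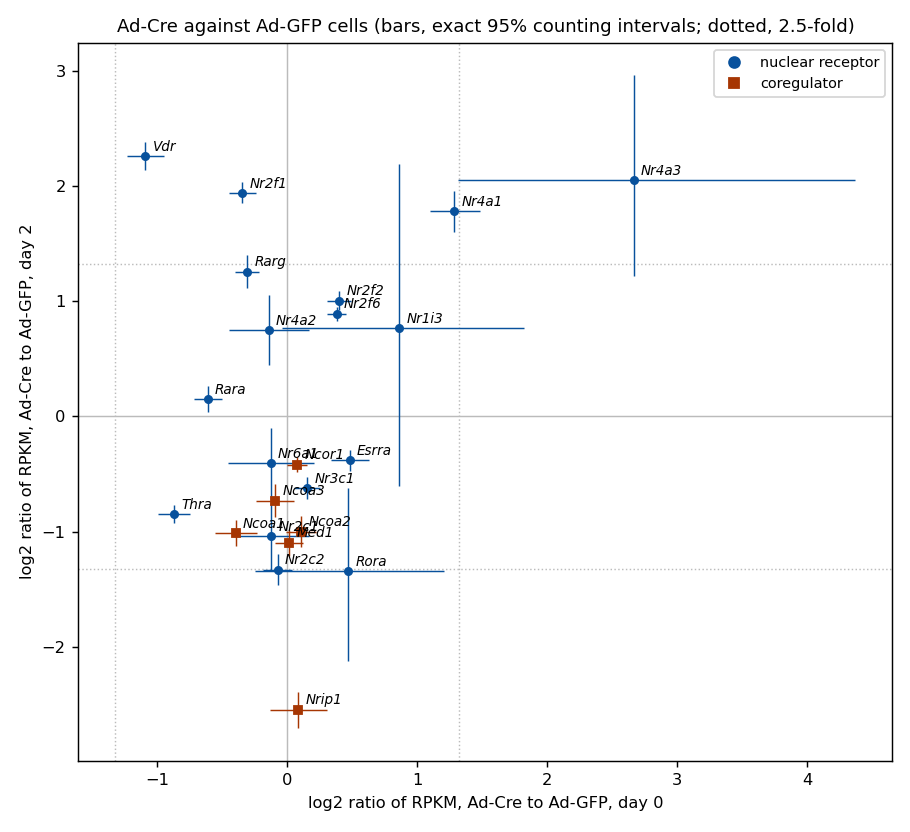
Log2 ratio of RPKM in Ad-Cre to Ad-GFP cells at day 0 (x axis) against day 2 (y axis) for the same 23 members, with exact 95% counting intervals as bars and 2.5-fold as dotted lines. *Nr4a1* (1.29 and 1.78) and *Nr4a3* (2.67 and 2.05) lie to the right on both days, whereas *Vdr* (−1.09 and 2.26) changes sign and *Nrip1* (0.09 and −2.54) lies low at day 2 only.

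*Esrra*, the estrogen-related receptor known for activating mitochondrial genes, had 626, 2633, 991 and 1588 reads, or 16.2, 51.1, 22.7 and 39.3 RPKM. It was higher at day 2 than at day 0 in both kinds of cells. The log2 ratio of day 2 to day 0 was 1.65 (1.53 to 1.78) in Ad-GFP cells, 3.15-fold, and 0.79 (0.68 to 0.91) in Ad-Cre cells, short of 2.5-fold. After division these were 1.63 and 0.14. The Ad-Cre to Ad-GFP log2 ratio at day 2 was −0.38 (−0.47 to −0.29), or −1.02 after division. *Esrrb* had 3, 1, 2 and 1 reads and *Esrrg*, which is known from oxidative tissues, 3, 11, 4 and 1.

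The constitutive androstane receptor gene *Nr1i3*, a xenobiotic sensor of liver, had 16, 9, 33 and 12 reads and passed 1 RPKM in Ad-Cre cells at day 0 only. Both of its Ad-Cre to Ad-GFP intervals held 0 by RPKM. With TMM factors that of day 0 just left it out, at 0.91 (0.004 to 1.87). Of its annotated transcript, 19.5% lies in exons of *Tomm40l* on the opposite strand.

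Altogether 19 of the 42 members stayed under 1 RPKM in all 4 libraries. Of these, 4 had 0 reads throughout (*Thrb*, *Hnf4g*, *Nr0b1* and *Nr2e3*). A further 8 had 1 to 3 reads in all 4 libraries together (*Pgr*, *Rorb*, *Nr5a1*, *Nr5a2*, *Hnf4a*, *Nr1h4*, *Nr0b2* and *Nr2e1*). The remaining 7 had more than 3 reads (*Nr3c2*, *Esr1*, *Esr2*, *Rarb*, *Esrrb*, *Esrrg* and *Nr1i2*). Several of these are receptors of liver, gut, adrenal gland or retina, such as *Hnf4a*, the bile acid receptor gene *Nr1h4*, *Nr5a1* (SF-1) and *Nr2e3*. At this depth these levels cannot be told from 0 for most of them.

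*Nrip1* (RIP140), a corepressor that nuclear receptors recruit in fat cells, showed the widest difference among the coregulators. It had 318, 2773, 383 and 373 reads, or 4.08, 26.6, 4.33 and 4.57 RPKM. The Ad-GFP day 2 library was the only one above 5 RPKM. Its log2 ratio of day 2 to day 0 was 2.71 (2.54 to 2.88) in Ad-GFP cells, 6.52-fold higher, and 0.08 (−0.13 to 0.29) in Ad-Cre cells. That interval holds 0, but after division the Ad-Cre value was 0.53, outside it. The 2 libraries of day 0 had a log2 ratio of 0.09 (−0.13 to 0.31).

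At day 2 *Nrip1* was 5.83-fold lower in the Ad-Cre library, at a log2 ratio of −2.54 (−2.70 to −2.39). With TMM factors this was −2.36, and after division −1.75, still past 2.5-fold. The gene lies at chr16:76287645-76374072 on the minus strand of mm9, and no other annotated gene overlaps its exons.

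The 3 p160 coactivators acetylate histones or recruit the enzymes that do. *Ncoa1* (SRC-1) had 680, 2349, 586 and 913 reads, or 5.39, 13.9, 4.10 and 6.91 RPKM, and was higher at day 2 in both kinds of cells. Its log2 ratio of day 2 to day 0 was 1.37 (1.246 to 1.495) in Ad-GFP cells, a call lost with TMM factors (1.27) and after division (1.20). In Ad-Cre cells it was 0.75 (0.60 to 0.91), and 1.37 after division, past 2.5-fold. *Ncoa2* (TIF2) had 7.43, 8.33, 7.99 and 4.17 RPKM and *Ncoa3* (SRC-3) 5.77, 7.09, 5.42 and 4.27 RPKM. Neither passed 2.5-fold in any comparison.

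*Ncor1*, the corepressor of unliganded thyroid hormone and retinoic acid receptors, had 2504, 5046, 2998 and 2963 reads, or 16.4, 24.8, 17.4 and 18.6 RPKM. It passed 2.5-fold in no comparison, and 10.6% of its 50-base windows matched elsewhere in the genome. *Med1*, the Mediator subunit that binds receptors directly, had 1310, 2365, 1501 and 869 reads, or 11.7, 15.8, 11.8 and 7.39 RPKM. Between the day 2 libraries the log2 ratio was −1.09 (−1.21 to −0.98), and −0.20 after division. A shorter *Med1* transcript of 2821 bases, which shares exons with the long one, had −0.72 in the same comparison.

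At day 2 the 6 coregulators lay below 0 together in the ratio of Ad-Cre to Ad-GFP, with a median of −1.01, and with TMM factors all 6 were still below 0 (median −0.82). Their transcripts are between 4529 and 8852 bases long. After division the median was −0.17 and *Ncor1* turned to 0.40, and *Nrip1* was the one coregulator still past 2.5-fold. The 15 expressed receptors had medians of 0.15 before and 0.31 after division. Transcripts of 6 to 8 kb had a median of −0.71 and those of 4 to 6 kb −0.55 over all expressed genes.

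**Figure D4:**
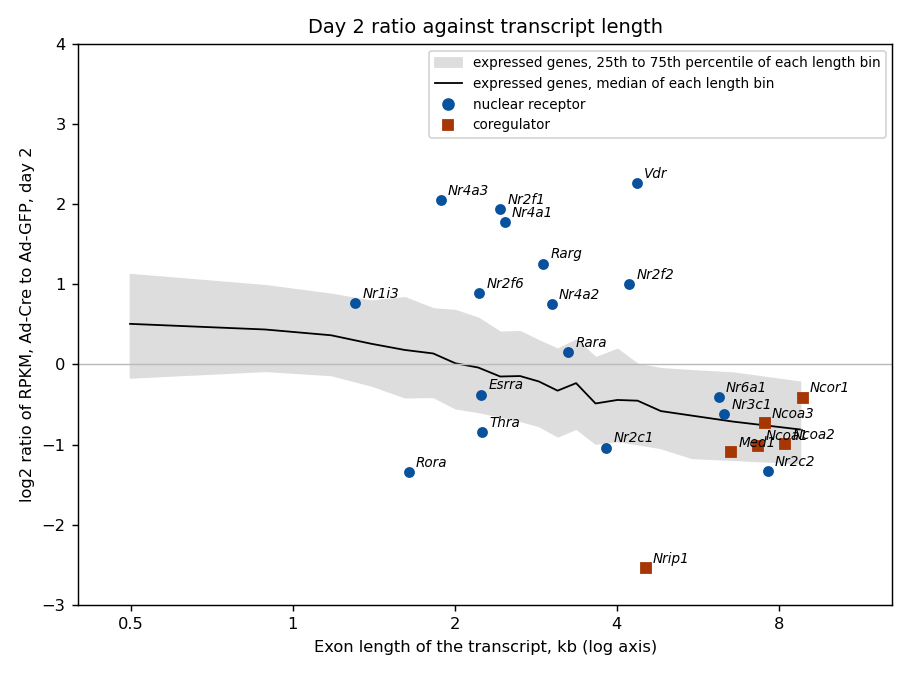
Log2 ratio of RPKM in Ad-Cre to Ad-GFP cells at day 2 against the exon length of the transcript (log axis), for expressed genes (line, median of each of 20 length bins; band, the middle range between the quartiles) and the 23 members (circles, receptors; squares, coregulators). The line falls from 0.51 to −0.81, *Ncoa1*, *Ncoa2*, *Ncoa3* and *Med1* lie inside the band, and *Vdr* and *Nrip1* lie far from it.

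Other coregulators and Mediator subunits were taken from lists of their own. Of 22 expressed coregulators outside the member list, 2 were called higher and 1 lower in Ad-GFP cells at day 2, against 8.38% and 12.7% of expressed genes. In the Ad-Cre to Ad-GFP comparison of day 2, 0 were called higher and 5 lower, with a median log2 ratio of −0.51, and of −0.11 after division. After division *Tbl1x* (−1.36) and *Ppargc1b* (−1.85) were still past 2.5-fold, and *Kat2b* (−0.88), *Ncoa7* (−0.74) and *Lcor* (−0.90) were not. Of all expressed genes, 8.14% were called higher and 10.1% lower in this comparison, and 1.27% and 4.12% in that of day 0. *Ppargc1b*, a coactivator of estrogen-related receptors, had 0.52, 27.2, 0.52 and 7.49 RPKM. Of 30 expressed Mediator subunits other than *Med1*, 0 passed 2.5-fold between Ad-Cre and Ad-GFP cells at either day by RPKM. After division *Med28* passed it at day 2, at 1.47. The 8 expressed PPAR, RXR, LXR and REV-ERB receptors, outside the member list, had 0 called higher and 3 lower in Ad-Cre cells at day 2. After division *Pparg* (−2.12) and *Nr1h3* (−1.83) were still past 2.5-fold, and *Nr1d2* (−1.91 before, −1.11 after) was not.

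**Figure D5:**
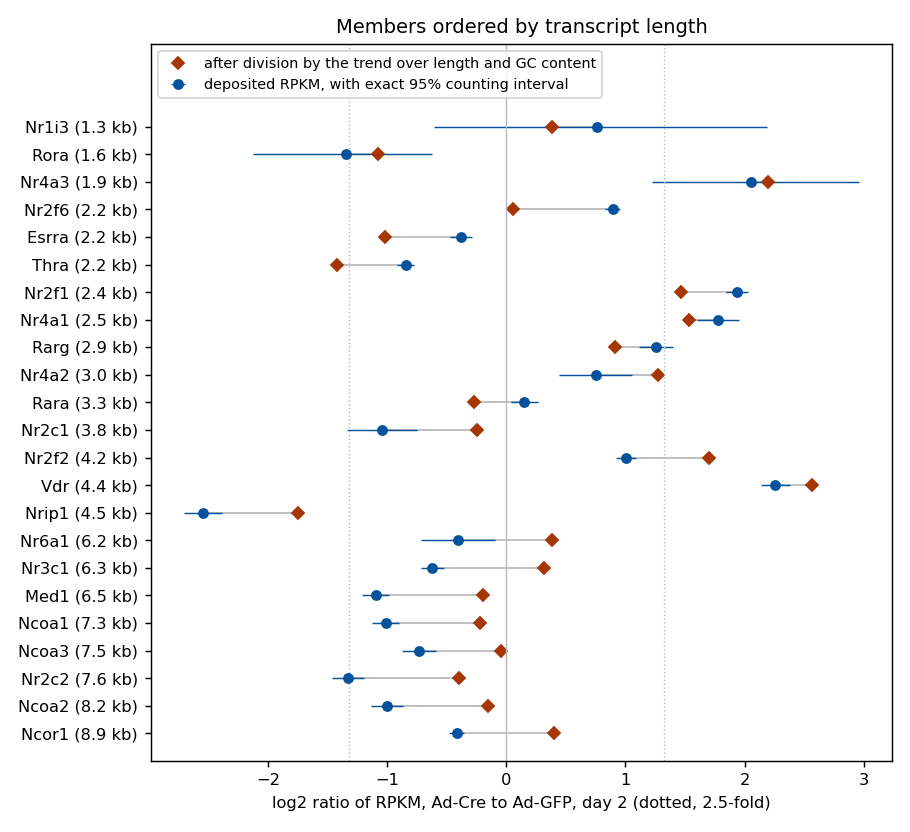
Log2 ratio of RPKM in Ad-Cre to Ad-GFP cells at day 2 for the 23 members, ordered by transcript length (in parentheses), as deposited (circles, with exact 95% counting intervals) and after division by the trend over length and GC content (diamonds). The dotted lines mark 2.5-fold. *Vdr*, *Nr4a1*, *Nr4a3*, *Nr2f1* and *Nrip1* lie past them in both versions, whereas *Nr2c2* moves from −1.33 to −0.40 and *Nr3c1* from −0.62 to 0.31.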

How the data were processed

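The authors sequenced 50-base reads, aligned them to mm9 and collected those on exons of RefSeq transcripts. Per the file headers, the deposited values are the read count of each transcript, without normalization, and its RPKM. The submitters' processing notes name bedtools 2.16 and SICER 1.1. The strand of counting and the treatment of reads with several matches were not given in the sources used here.

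From these files, 29082 transcripts were read, 97.8% of them with a symbol, and the transcript with most reads represented each symbol. Mapped totals were recovered from count and RPKM. Ratios are of deposited RPKM, with exact Clopper-Pearson 95% intervals (scipy 1.17.1). A floor of 3 reads stands for a count of 0. Expression above 1 RPKM in an Ad-GFP library and the 2.5-fold cutoff follow the study's methods. The paper nevertheless reports more expressed genes than are counted here, where each symbol counts once. Its share of genes lower at day 2 in Ad-GFP cells is smaller. The reason was not tested. TMM factors were computed with edgeR 4.0.16, and no edgeR test was run. The trend over length and GC content is a line through the medians of 20 bins, fitted in 5 rounds. Taking the bin medians alone left part of a simulated trend at the extremes of length, so the line replaced them, and the procedure was then tested on simulated data. GC content was had for 94.1% of expressed symbols and all 21 expressed members. Positions and exon overlaps came from GENCODE vM1 on mm9, 50-base windows were matched with blastn 2.17.0, and promoters came from RefSeq on GRCm38.p6, which held 36 of the 42 members.

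Members over 1 RPKM in any library are named with values and the rest by counts. Of each context list at most 5 genes are named, those past 2.5-fold, by RPKM or after division, with most reads or those set as checks. *Pde4b* and *Crem* are exceptions, named after their values were seen. A gene set as a check is not reported here. The members and the lists were chosen with earlier results of these data known. Alternatives were TMM factors, the sum of counts, cutoffs of 2-fold and 4-fold, thresholds of expression, 1 RPKM added to both values, a minimum of 20 reads, the interval's bound, the mean over transcripts, and the division.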

Additional observations from a re-analysis of the deposited data

Results flagged for a closer look

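For 10 of the 23 members over 1 RPKM in any library, the ratio of day 2 to day 0 lay on opposite sides of 1 in Ad-GFP and Ad-Cre cells. Neither counting interval held 1, by RPKM and also with TMM factors. The share of all expressed genes that meet this rule was not computed, so the count does not set the members apart. *Ncoa2* met this by RPKM but not with TMM factors, and its difference was −1.11, or −0.32 after division by the trend over length and GC content. Each condition has 1 library, so none of these differences was tested. The values are differences of log2 ratios, Ad-Cre minus Ad-GFP, and all 10 use the Ad-Cre day 2 library.

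The ratio was below 1 in Ad-GFP and above 1 in Ad-Cre cells for *Vdr* (3.35), *Nr2f1* (2.29), *Nr4a2* (0.89) and *Nr2f2* (0.60). After division by the trend over length and GC content, where the signs alone were compared, these 4 still lay on opposite sides, at 3.61, 1.76, 1.37 and 1.24.

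The ratio was above 1 in Ad-GFP and below 1 in Ad-Cre cells for *Rora* (−1.81), *Nr2c2* (−1.26), *Med1* (−1.11), *Nr2c1* (−0.92), *Nr3c1* (−0.77) and *Ncoa3* (−0.64). After division *Rora* (−1.48) and *Nr2c2* (−0.29) still lay on opposite sides by sign. The divided Ad-GFP log2 ratio of *Nr2c2* was 0.03, so its sign there says little. *Med1* (−0.26), *Nr2c1* (−0.09), *Nr3c1* (0.16) and *Ncoa3* (−0.02) no longer did.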

How the results depend on the processing

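In Ad-GFP cells, the 5 members called over induction became 3 with TMM factors, 2 with a 4-fold cutoff and 3 with the bound of the interval past the cutoff. In Ad-Cre cells, the 3 called became 1 with a 4-fold cutoff. Between Ad-Cre and Ad-GFP cells at day 0, the 0 called became 1 with TMM factors (*Nr4a1*), 2 with a 2-fold cutoff and 1 with expression over 1 RPKM in any of the 4 libraries (*Nr4a3*). At day 2, the 6 called became 11 with a 2-fold and 2 with a 4-fold cutoff. With the other settings these counts stayed within 1.5 times. The division kept the number called at day 2 but changed its members, with *Nr2f2* and *Thra* added and *Rora* and *Nr2c2* lost. Over all expressed genes the balance of calls at day 2 turned with the scaling, from 940 higher and 1162 lower by RPKM to 1213 and 816 with TMM factors, and that of induction in Ad-Cre cells from 1000 and 1156 to 1320 and 917 with the sum of counts. With expression over 1 RPKM in any of the 4 libraries, the day 2 balance was 1137 higher and 1171 lower. Of 460 pairs of a ratio and a setting over 23 members, 348 stayed inside the counting interval, 112 left it (51 of them with the division), and 0 called ratios changed sign. No paired analysis was possible because each condition has 1 library, and for the same reason leaving out a replicate gives no value. Depth limits the members with few reads, such as *Rora*, *Nr4a3* and *Nr1i3*, and counting intervals say nothing of the spread between cultures.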
